A study of Mus musculus with 8 samples.

Results

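Aminoacyl-tRNA synthetases are the enzymes that join each amino acid to its tRNA. The 36 genes described here were chosen by name, with earlier results of these data known, out of 49315 genes listed in each library. Of these, 20 code for cytosolic enzymes, and 16, whose names end in 2, code for mitochondrial enzymes. Their transcripts were measured by RNA sequencing in immortalized mouse embryonic fibroblasts (MEFs), with 4 libraries labelled Opa1-/- and 4 labelled Opa1-/- + OPA1, in which OPA1 had been put back into Opa1-/- cells. Both groups therefore carry the Opa1 deletion, no wild-type cells were compared, no treatment is given, and the labels do not say which OPA1 was put back, how, or whether each line is 1 clone. OPA1, a mitochondrial GTPase, joins the inner membranes of fusing mitochondria and holds cristae in shape, and the study's stated subject is the effect of its loss on genes tied to ferroptosis.

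A charged tRNA is what the ribosome reads, so the synthetases set the supply of every amino acid for translation. Cytosol and mitochondrial matrix keep largely separate sets, both coded in the nucleus, and the mitochondrial set serves the few proteins that mitochondria make from their own DNA. Several cytosolic synthetases are held in a multi-synthetase complex on the scaffold proteins Aimp1, Aimp2 and Eef1e1, and the others act outside it. The enzymes fall into class I and class II by the fold of their catalytic domain. Genes of cytosolic synthetases are among the textbook targets of ATF4, a transcription factor of the integrated stress response that is translated when amino acids run short or mitochondria are disturbed. With C/EBP partners, ATF4 binds composite DNA elements whose core is often written TGATGNAA.

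Promoter sequence is shown first because several genes of the set hold these letters. RefSeq promoter windows (GRCm38.p6, 250 bases before to 50 bases after the start of the gene) were matched to 27 of the 36 genes, 13 cytosolic and 14 mitochondrial. TGATGNAA, read on both strands, was in 5 of the 13 cytosolic windows (Aars, Gars, Iars, Tars and Yars) and in 0 of the 14 mitochondrial windows. It was in 3.97% of all 32851 windows of the table, in 2.07% of the windows of genes tested here, in 3.37% of those called higher in Opa1-/- and in 1.67% of those called lower. For the shares of genes tested and called, genes were matched by exact symbol only (11892 windows of genes tested). The synthetases were also matched by synonym, so genes renamed in RefSeq are missing from those shares. Of the 5 genes, Aars, Gars, Tars and Yars were called higher in Opa1-/- (adjusted p below 0.05, as for 16.3% of all genes tested) and Iars was not. The calls of Aars and Yars were lost in 7 and 8 of 19 alternative analyses. Of the 7 cytosolic genes called higher that had a window, 4 held the motif, and Mars, Sars and Qars did not. Of the 6 with a window that were not called higher, 1 held it. Cars, Lars and Nars, also called higher, had no window matched. The match is of letters only, and binding was not measured. The match nearest the start of each gene is shown with 11 bases on each side, on the strand that reads the motif, which is in capitals, and with their distance from the RefSeq start (negative numbers lie before it). The Aars match lies at chr8:111033851-111033858, the Gars match at chr6:55037971-55037978, the Iars match at chr13:49682137-49682144, the Tars match at chr15:11399666-11399673 and the Yars match at chr4:129189906-129189913. The Yars motif reads on the gene's own strand and the other 4 on the opposite strand.
Aars 9 to 16: tcagagcgctcTGATGAAAagtgacccgct
Gars -30 to -23: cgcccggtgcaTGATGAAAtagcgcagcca
Iars 7 to 14: gcgtctggaggTGATGCAAtactgacagtg
Tars -15 to -8: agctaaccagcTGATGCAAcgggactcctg
Yars 3 to 10: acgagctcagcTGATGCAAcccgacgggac

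Values below are scaled TPM (TPM is a transcript's share of the library, corrected for gene length, and was then scaled between libraries). Differences are Opa1-/- minus Opa1-/- + OPA1 of log2(scaled TPM + 1), which understates the change of low genes. A gene was called where the limma-trend p-value, adjusted by Benjamini-Hochberg over 14272 genes, was below 0.05. Over all these genes 33.0% were called, 16.3% higher and 16.8% lower in Opa1-/-, and the median difference was -0.00098. From the steps in the TPM values, each library held 53.0 to 57.6 M assigned reads (M, 1000000 reads). Opa1 itself was at 14.8, 14.7, 13.7 and 12.5 in the Opa1-/- libraries and 15.6, 14.6, 14.5 and 14.5 in the Opa1-/- + OPA1 libraries (-0.086, adjusted p = 0.306), so its transcript total overlapped between the groups and gave no check of the labels. Fibroblast markers were present, 8 of 10 at 1 TPM or more, with summed levels of 2632 to 2944 in Opa1-/- and 3034 to 3090 in Opa1-/- + OPA1 libraries. Col1a1, Col1a2, Pdgfrb and Dcn were lower and Col3a1 higher in Opa1-/-, Vim, Thy1 and Fn1 were not called, and Pdgfra and Lum were below 1 TPM. Of 4 epithelial markers 3 were at 1 TPM or more (sums of 175 to 212 in Opa1-/- and 144 to 207 in Opa1-/- + OPA1), with Cdh1 and Krt8 higher in Opa1-/-, Krt18 not called and Epcam near 0. Immune markers summed to 2.20 to 7.09 in Opa1-/- and 3.52 to 5.66 in Opa1-/- + OPA1 (1 of 4 at 1 TPM or more, Cd68), and no endothelial marker (of 3, sums of 0.217 to 0.425 in Opa1-/- and 0.205 to 0.277 in Opa1-/- + OPA1) or muscle marker (of 3, sums of 0.563 to 0.810 in Opa1-/- and 0.184 to 0.404 in Opa1-/- + OPA1) reached 1 TPM. The part of these marker differences in the results below was not tested. In cultures measured in bulk, fewer cells of a type and less RNA per cell cannot be told apart.

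All 36 synthetase genes passed the filter of 1 TPM in at least 4 libraries. The cytosolic enzymes were the abundant set. Their summed level was 3667 to 4074 in Opa1-/- libraries and 3171 to 3480 in Opa1-/- + OPA1 libraries, while the mitochondrial enzymes without Lars2 summed to 280 to 290 in Opa1-/- and 265 to 272 in Opa1-/- + OPA1 libraries. The cytosolic sum was 12.9 to 14.0 times the mitochondrial one in Opa1-/- and 11.9 to 12.8 times in Opa1-/- + OPA1 libraries, and these ranges do not overlap, though they nearly touch. With Lars2 counted in, the ranges were 4.68 to 7.004 in Opa1-/- and 4.56 to 8.20 in Opa1-/- + OPA1 libraries and overlapped. Gars and Kars, whose genes make both the cytosolic and the mitochondrial form, were counted in the cytosolic sum only. Their means were 462 and 170 in Opa1-/- and 379 and 214 in Opa1-/- + OPA1 libraries. In 7 of 8 libraries every cytosolic synthetase stood above every mitochondrial one except Lars2. In Opa1-/- + OPA1 library 2, Eprs at 38.2 was below Iars2 at 39.2. Nars, which charges asparagine, was the most abundant cytosolic member by mean in both groups, followed by Gars and Tars, and Eprs was the lowest cytosolic member at 43.6, 41.2, 51.1 and 48.04 in the Opa1-/- libraries and 39.2, 38.2, 45.3 and 45.2 in the Opa1-/- + OPA1 libraries. In the cytosolic order by mean, 11 of 19 neighbouring pairs overlapped between libraries in Opa1-/- and 8 of 19 in Opa1-/- + OPA1. Levels divide by annotated exon bases, 18102 for Eprs against a median of 4840 for the cytosolic genes. The part of this length in the order was not tested. Among the mitochondrial enzymes the lowest by mean over all libraries was Nars2, the asparagine enzyme of the matrix, at 6.01, 6.28, 6.62 and 7.12 in the Opa1-/- libraries and 4.97, 5.33, 6.31 and 5.85 in the Opa1-/- + OPA1 libraries. Nars2 was lowest in Opa1-/- + OPA1, while in Opa1-/- Pars2 and Mars2 were below it by mean, and 9 of 15 neighbouring mitochondrial pairs overlapped in each group.

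**Figure D1:**
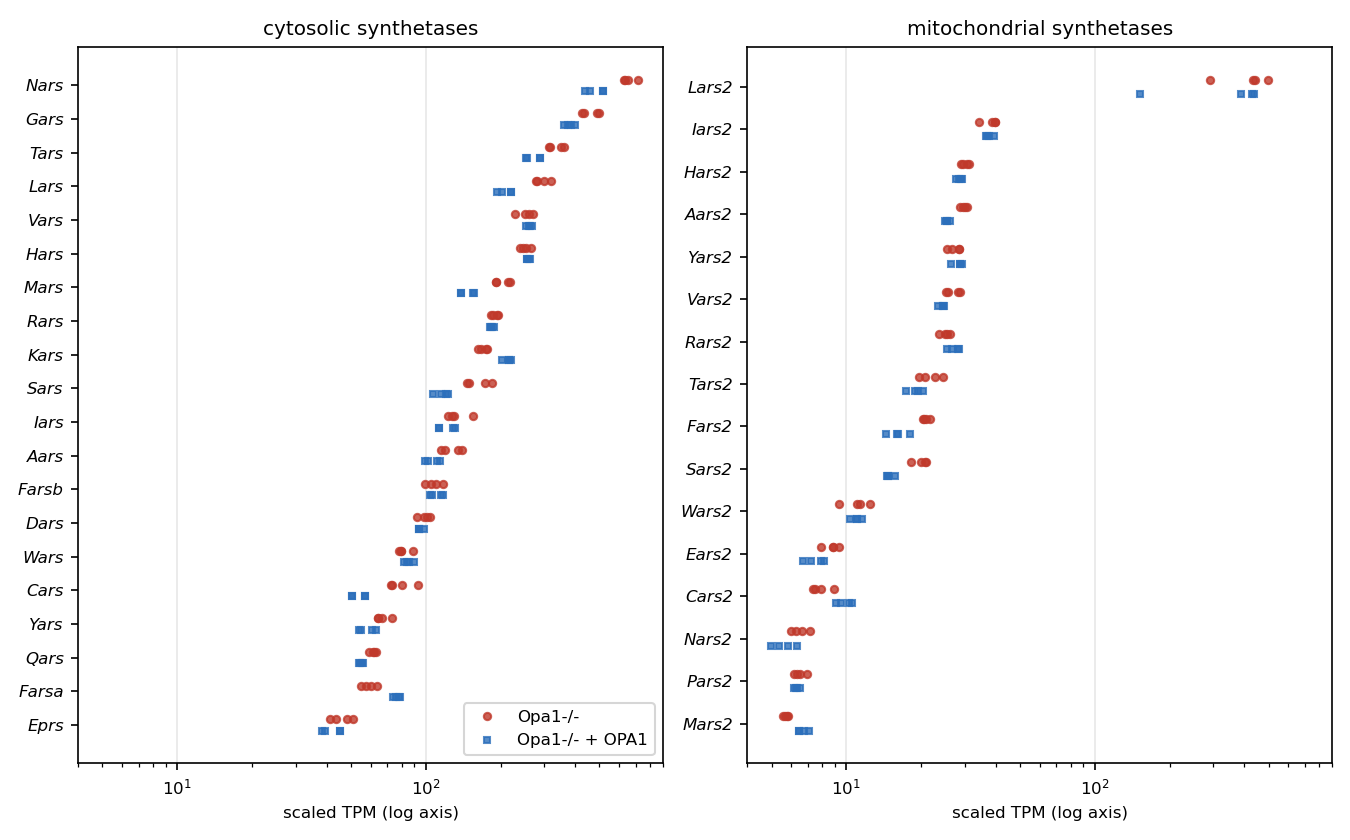
Level of each synthetase gene in scaled TPM (horizontal log axis) in 4 Opa1-/- libraries (circles, upper row of each gene) and 4 Opa1-/- + OPA1 libraries (squares, lower row), cytosolic enzymes at the left and mitochondrial ones at the right. Mitochondrial genes lie lower than cytosolic ones except Lars2 and, in 1 library, Iars2 above Eprs, and Lars2 spreads from 152 to 498.

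The cytosolic set had more genes higher than lower in Opa1-/- cells. Of 20 genes, 10 rose, 2 fell (Farsa and Kars) and 8 were not called, with a median difference of 0.15; over all genes tested 16.3% were called higher and 16.8% lower. In the same 10 genes every Opa1-/- library lay above every Opa1-/- + OPA1 library, and in the same 2 every one lay below. Over all genes tested, groups did not overlap in 17.4% in the higher and in 18.9% in the lower direction. The 10 genes include enzymes inside and outside the multi-synthetase complex and of both classes. Outside the complex 7 of 12 rose and 1 fell, and inside it 3 of 8 rose and 1 fell. Of 9 class I enzymes 5 rose and none fell, and of 10 class II enzymes 5 rose and 2 fell. Whether these subgroups differ was not tested.

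Cars, the cysteine enzyme, had the largest difference of the set as fitted (ENSMUSG00000010755, chromosome 7, 143557230 to 143600090, minus strand). It was at 72.7, 72.96, 80.5 and 93.4 scaled TPM in Opa1-/- libraries 1 to 4, against 50.4, 50.4, 56.8 and 56.7 in Opa1-/- + OPA1 libraries 1 to 4 (log2 difference 0.56, SE 0.08, adjusted p = 0.00115). The groups did not overlap, and library 4 was the highest of the Opa1-/- libraries. Without it, Cars and Lars were both at 0.49. Chromosome 7, where Cars lies, had a median difference of 0.11 over 644 genes, and after subtraction of the chromosome medians Cars was at 0.45 (adjusted p = 0.0048), below Lars at 0.52, Sars at 0.51 and Nars at 0.47. Sars, which charges serine and also supplies the seryl-tRNA from which selenocysteine is made (ENSMUSG00000068739, chromosome 3, 108424865 to 108445209, minus strand), was at 149.6, 146, 173 and 185 in the Opa1-/- libraries and 107, 116, 123 and 121 in the Opa1-/- + OPA1 libraries (log2 difference 0.48, SE 0.08, adjusted p = 0.00216). Nars (ENSMUSG00000024587, chromosome 18, 64499647 to 64516652, minus strand) was at 627, 633, 711 and 649 in the Opa1-/- libraries and 437, 457, 518 and 515 in the Opa1-/- + OPA1 libraries (log2 difference 0.44, SE 0.07, adjusted p = 0.00124). All 3 genes had their higher values in libraries 3 and 4 of each group. Tars, the threonine enzyme (ENSMUSG00000022241, chromosome 15, 11382301 to 11399665, minus strand), was at 316, 314, 359 and 351 in the Opa1-/- libraries and 253, 255, 289 and 289 in the Opa1-/- + OPA1 libraries (log2 difference 0.30, SE 0.07, adjusted p = 0.00768). Gars, the glycine enzyme, whose 1 gene makes both the cytosolic and the mitochondrial form (ENSMUSG00000029777, chromosome 6, 55038007 to 55079500, plus strand), was at 426, 434, 496 and 491 in the Opa1-/- libraries and 360.5, 372, 397 and 385 in the Opa1-/- + OPA1 libraries (log2 difference 0.28, SE 0.06, adjusted p = 0.00672). In both, libraries 3 and 4 were above libraries 1 and 2 in each group, and the groups did not overlap.

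Aars, the alanine enzyme (ENSMUSG00000031960, chromosome 8, 111033144 to 111057664, plus strand), was at 119, 115, 140.2 and 134 in the Opa1-/- libraries and 102, 99.5, 111 and 114 in the Opa1-/- + OPA1 libraries (log2 difference 0.25, SE 0.07, adjusted p = 0.0286). The gap between the groups was narrow, 114.8 in the lowest Opa1-/- library against 113.9 in the highest Opa1-/- + OPA1 library. The call was lost without Opa1-/- library 3 (adjusted p = 0.0606) or 4 (0.0512), or without Opa1-/- + OPA1 library 1 (0.0776) or 2 (0.0784). Counting these, the Aars call was lost in 7 of 19 alternatives. Exosc6, an exosome subunit named here after its values were seen, lies with all 1326 of its exon bases inside Aars exons on the same strand (14.3% of the Aars exon bases) and was listed at 0 in all 8 libraries. Yars, the tyrosine enzyme (ENSMUSG00000028811, chromosome 4, 129189760 to 129219607, plus strand), was at 64.5, 64.1, 72.95 and 66.6 in the Opa1-/- libraries and 54.1, 54.7, 61.04 and 63.2 in the Opa1-/- + OPA1 libraries (log2 difference 0.20, SE 0.06, adjusted p = 0.0389). Its lowest Opa1-/- value was just above its highest Opa1-/- + OPA1 value, and the call was lost without Opa1-/- library 1 (0.0528) or 3 (0.0819), or without Opa1-/- + OPA1 library 1 (0.105), 2 (0.103) or 3 (0.0572). Counting these, the Yars call was lost in 8 of 19 alternatives. On chromosome 4, where Yars lies, the median difference was -0.15 over 578 genes, and after subtraction of the chromosome medians Yars was at 0.35 (adjusted p = 0.00358).

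Within the complex, Lars, Mars and Qars rose. Lars, which charges leucine and is known as a leucine sensor upstream of mTORC1 (ENSMUSG00000024493, chromosome 18, 42202298 to 42262194, minus strand), was at 280.1, 279, 319.8 and 299.6 in the Opa1-/- libraries and 202, 194, 219.5 and 219 in the Opa1-/- + OPA1 libraries (log2 difference 0.50, SE 0.06, adjusted p = 0.000374). Mars, which charges both the initiator and the elongator tRNA of methionine (ENSMUSG00000040354, chromosome 10, 127296221 to 127311786, minus strand), was at 192, 192, 219 and 214 in the Opa1-/- libraries and 139, 138, 157 and 155 in the Opa1-/- + OPA1 libraries (log2 difference 0.47, SE 0.06, adjusted p = 0.000693). Neither gene's groups came near each other. Mars shares 68 exon bases with Ddit3 on the opposite strand, and whether counting used strand is not stated, so reads there cannot be told apart. Qars, the glutamine enzyme (ENSMUSG00000032604, chromosome 9, 108507706 to 108515941, plus strand), was at 62.03, 63.2, 61.2 and 59.3 in the Opa1-/- libraries and 55.1, 55.9, 54.4 and 53.8 in the Opa1-/- + OPA1 libraries (log2 difference 0.16, SE 0.03, adjusted p = 0.0073). Qars changed least among the 10 and had the tightest groups. Chromosome 9, where Qars lies, had a median difference of 0.095 over 509 genes, and after subtraction of the chromosome medians Qars was at 0.069 (adjusted p = 0.139).

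Farsa and Kars fell. Farsa codes for the alpha, catalytic subunit of phenylalanyl-tRNA synthetase (ENSMUSG00000003808, chromosome 8, 84856989 to 84869257, plus strand) and was at 57.5, 54.9, 60.1 and 63.7 in the Opa1-/- libraries and 76.1, 73.8, 77.8 and 78.8 in the Opa1-/- + OPA1 libraries (log2 difference -0.37, SE 0.05, adjusted p = 0.00066). Farsb, the beta subunit of the same enzyme, was at 99.2, 105, 117 and 109.9 in the Opa1-/- libraries and 106, 104, 117 and 115 in the Opa1-/- + OPA1 libraries, a difference of -0.034 (95% interval -0.17 to 0.10, adjusted p = 0.706). The intervals of the subunits, -0.48 to -0.26 for Farsa and -0.17 to 0.10 for Farsb, do not overlap, and the difference between them was not tested itself. Farsb shares 9.47% of its exon bases with Sgpp2 on the opposite strand, which was below 1 TPM in every library. Kars, the lysine enzyme, whose 1 gene also makes both the cytosolic and the mitochondrial form (ENSMUSG00000031948, chromosome 8, 111993443 to 112011323, minus strand), was at 167, 163, 174 and 177 in the Opa1-/- libraries and 204, 216, 220.4 and 217 in the Opa1-/- + OPA1 libraries (log2 difference -0.33, SE 0.04, adjusted p = 0.000463). In both genes every Opa1-/- library was below every Opa1-/- + OPA1 library by a clear gap. Farsa, Kars, Aars and the mitochondrial Cars2 are the 4 synthetase genes of chromosome 8, where the median of 524 genes was -0.18, with 23 called higher and 272 called lower. After subtraction of the chromosome medians, Farsa was at -0.18 (adjusted p = 0.0328) and Kars at -0.14 (adjusted p = 0.0356), while Aars was at 0.44 (adjusted p = 0.0031).

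The 8 cytosolic genes not called were Dars, Eprs, Iars, Rars, Farsb, Hars, Vars and Wars. Eprs, which fuses the glutamate and the proline enzyme in 1 protein, was higher in Opa1-/- in all 4 same-numbered pairs of libraries, at 0.13 (95% interval -0.057 to 0.31, adjusted p = 0.269), and passed when the library number was a block in the fit (adjusted p = 0.0407). Iars, the isoleucine enzyme, was at 0.14 (95% interval -0.046 to 0.33, adjusted p = 0.228), and 7.15% of its 50-base words also occur in the transcript of Gm4849. Dars, for aspartate, was called with length and GC trends removed (0.11, adjusted p = 0.0459). As fitted, Dars and Rars, the arginine enzyme, were at 0.057 (adjusted p = 0.341) and 0.039 (adjusted p = 0.423). Hars, Vars and Wars, for histidine, valine and tryptophan, had differences of -0.042, -0.052 and -0.067, with adjusted p of 0.336 or above. For Rars the 95% interval reached from -0.039 to 0.12, so a change as large as that of Lars lies outside it.

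**Figure D2:**
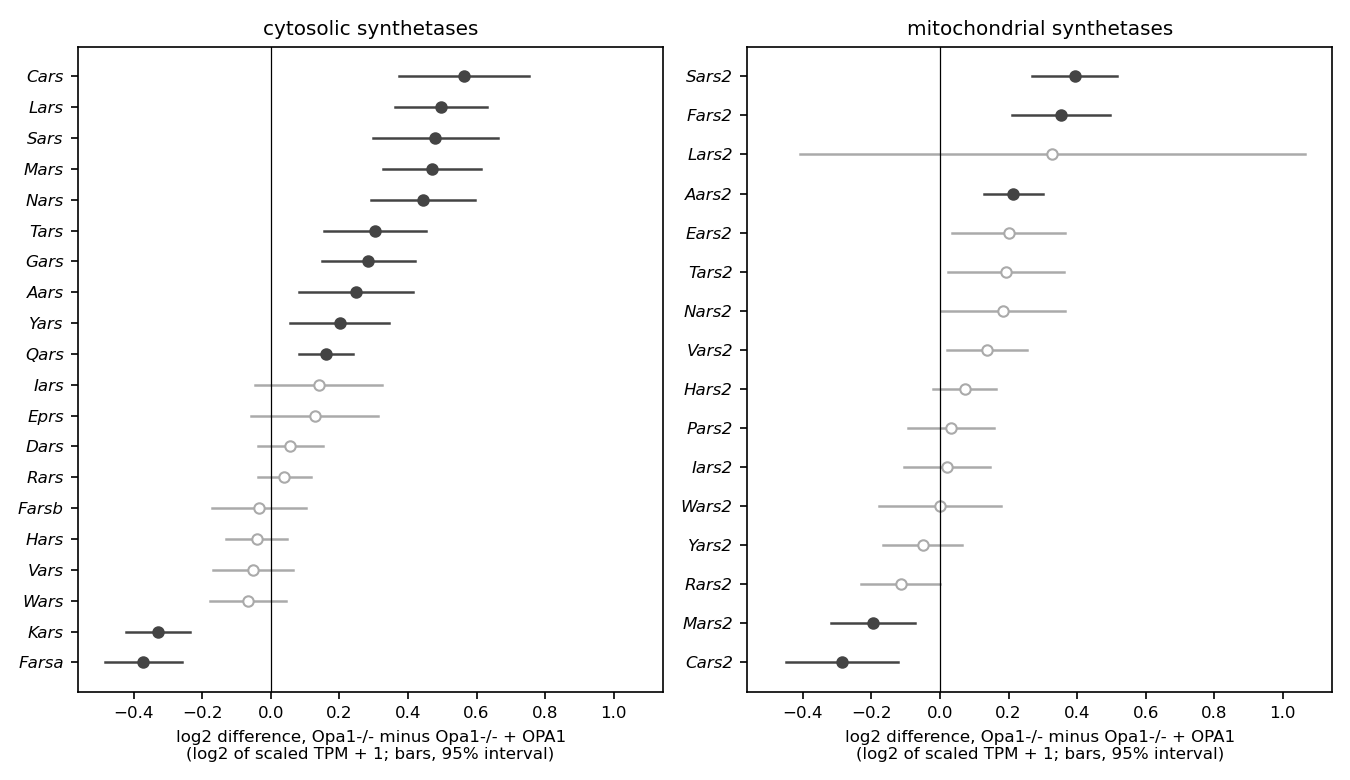
Difference of each synthetase gene between Opa1-/- and Opa1-/- + OPA1 (horizontal axis, log2 of scaled TPM + 1), with bars for the 95% interval, 4 libraries in each group. Filled dark points were called; 10 cytosolic and 3 mitochondrial genes lie to the right of 0 and 2 of each set to the left, and Lars2 has the widest interval, -0.41 to 1.07.

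Many cytosolic enzymes also shared an order across the libraries of a group. In 14 of 20 cytosolic genes libraries 3 and 4 were both above libraries 1 and 2 in Opa1-/- and again in Opa1-/- + OPA1. This order was found in 4 of 16 mitochondrial genes and in 7.15% of all genes tested (1020 genes). The 14 genes held 9 of the 10 that rose, with Qars the exception, and also Farsa and Kars, which fell. The split of the libraries was noticed in these values, and what distinguishes the libraries is not in the labels. Atf4 had the same order, at 578, 604, 694 and 744 in the Opa1-/- libraries and 484, 502, 594 and 602 in the Opa1-/- + OPA1 libraries. Its difference was 0.26 (95% interval 0.037 to 0.49, adjusted p = 0.0731), and with the library number as a block its adjusted p was 0.0032. Asns, which makes asparagine and is a known ATF4 target, was at 244, 239.8, 308 and 305 in the Opa1-/- libraries and 124, 128, 158 and 158 in the Opa1-/- + OPA1 libraries (0.95, adjusted p = 0.000407). Trib3, a pseudokinase induced by ATF4, was at 33.7, 37.1, 48.7 and 54.4 in the Opa1-/- libraries and 7.92, 8.26, 11.04 and 12.4 in the Opa1-/- + OPA1 libraries (2.02, adjusted p = 7.69e-05), and Ddit3, which codes for the stress factor CHOP, was at 29.2, 31.3, 37.1 and 41.7 in the Opa1-/- libraries and 22.7, 20.03, 24.6 and 27.6 in the Opa1-/- + OPA1 libraries (0.53, adjusted p = 0.0105). All 4 genes had libraries 3 and 4 above libraries 1 and 2 in each group. Whether Atf4 is linked to the synthetase levels was not tested.

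**Figure D3:**
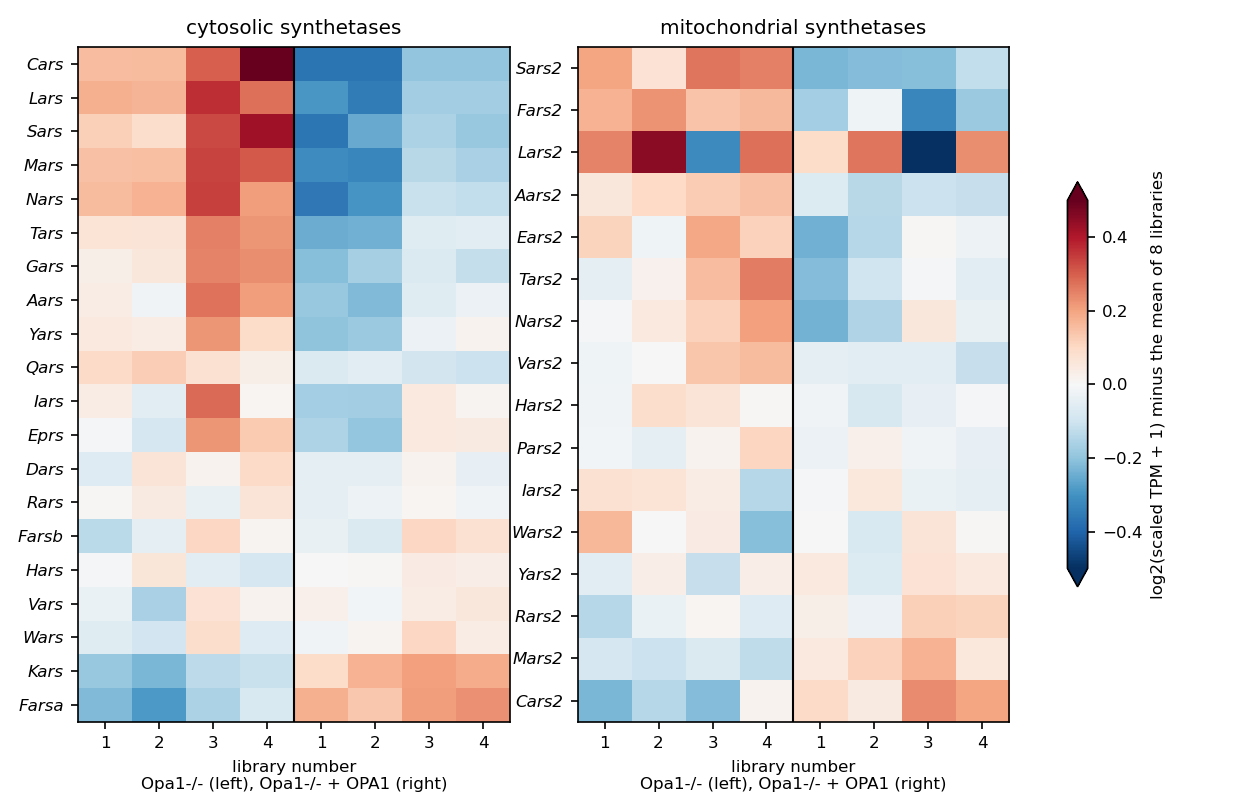
Each synthetase gene (rows) in each library (columns, Opa1-/- 1 to 4 at the left and Opa1-/- + OPA1 1 to 4 at the right) as log2(scaled TPM + 1) minus the gene's mean over 8 libraries, red above and blue below the mean. In the left panel libraries 3 and 4 of each group are redder than libraries 1 and 2 in most rows, which was the case for 14 of 20 cytosolic and 4 of 16 mitochondrial genes.

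In the mitochondrial set some genes rose and some fell. Of 16 genes, 3 rose (Sars2, Fars2 and Aars2), 2 fell (Cars2 and Mars2) and 11 were not called, with a median difference of 0.10, or 0.072 without Lars2. These shares, 3 and 2 of 16, are close to the 16.3% and 16.8% of all genes. The count of higher genes was 5 without Opa1-/- library 1, and the count of lower genes was 1 without Opa1-/- library 1 or 2, or without Opa1-/- + OPA1 library 2 or 3. Sars2, the serine enzyme of the matrix (ENSMUSG00000070699, chromosome 7, 28741992 to 28753871, plus strand), was at 19.9, 18.2, 20.9 and 20.7 scaled TPM in Opa1-/- libraries 1 to 4, against 14.6, 14.7, 14.7 and 15.7 in Opa1-/- + OPA1 libraries 1 to 4 (log2 difference 0.39, SE 0.05, adjusted p = 0.000802). Fars2, which unlike the cytosolic phenylalanine enzyme is a single chain (ENSMUSG00000021420, chromosome 13, 36117412 to 36726280, plus strand), was at 20.8, 21.6, 20.4 and 20.6 in the Opa1-/- libraries and 16.2, 18.05, 14.4 and 16.01 in the Opa1-/- + OPA1 libraries (log2 difference 0.35, SE 0.06, adjusted p = 0.00311). Aars2, for alanine (ENSMUSG00000023938, chromosome 17, 45506841 to 45520843, plus strand), was at 28.7, 29.6, 30.1 and 30.5 in the Opa1-/- libraries and 26.2, 24.9, 25.5 and 25.3 in the Opa1-/- + OPA1 libraries (log2 difference 0.21, SE 0.04, adjusted p = 0.00291). None of the 3 overlapped between groups. Chromosome 7, where Sars2 lies, had a median difference of 0.11 over 644 genes. After subtraction of the chromosome medians Sars2 was at 0.28 (adjusted p = 0.00627), below Fars2 at 0.36. Fars2 shares 8.72% of its exon bases with Nrn1 on the opposite strand, a gene named after its values were seen, which was at 274, 285, 201 and 216 in the Opa1-/- libraries and 279, 279, 257 and 263 in the Opa1-/- + OPA1 libraries.

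Cars2, the mitochondrial cysteine enzyme, also known for making cysteine persulfides (ENSMUSG00000056228, chromosome 8, 11513977 to 11550783, minus strand), was at 7.37, 7.89, 7.45 and 8.94 in the Opa1-/- libraries and 9.48, 9.13, 10.6 and 10.3 in the Opa1-/- + OPA1 libraries (log2 difference -0.29, SE 0.07, adjusted p = 0.0154). It shares 5.83% of its exon bases with Naxd on the opposite strand, a gene named after its values were seen, which was at 19.97, 20.2, 20.7 and 23.4 in the Opa1-/- libraries and 18.9, 18.7, 17.8 and 18.3 in the Opa1-/- + OPA1 libraries. It lies on chromosome 8, and after subtraction of the chromosome medians its difference was -0.099 (adjusted p = 0.366). It was also not called with both libraries numbered 3 left out (-0.23, adjusted p = 0.0990) or with length and GC trends removed (-0.21, adjusted p = 0.0985). Mars2, the methionine enzyme, was the lowest mitochondrial member in Opa1-/- (ENSMUSG00000046994, chromosome 1, 55237177 to 55248470, plus strand), at 5.77, 5.67, 5.83 and 5.58 in the Opa1-/- libraries and 6.43, 6.78, 7.09 and 6.45 in the Opa1-/- + OPA1 libraries (log2 difference -0.20, SE 0.05, adjusted p = 0.023). The 4 Opa1-/- values spread less than the 4 Opa1-/- + OPA1 values and lie below all of them. Its call was lost without Opa1-/- library 1 (adjusted p = 0.0506) or 2 (0.0544), or without Opa1-/- + OPA1 library 2 (0.0630) or 3 (0.0756), and its difference was -0.080 (adjusted p = 0.292) after removal of the trends with gene length and GC.

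Among the 11 mitochondrial genes not called, Vars2, for valine, did not overlap between groups, at 25.1, 25.5, 28.2 and 28.5 in the Opa1-/- libraries and 24.7, 24.5, 24.5 and 23.5 in the Opa1-/- + OPA1 libraries (0.14, adjusted p = 0.0709), and 8.52% of its exon bases are shared with the antisense gene Gm20483. Ears2, Tars2 and Nars2, for glutamate, threonine and asparagine, were higher in Opa1-/- in all 4 same-numbered pairs, with differences of 0.20, 0.19 and 0.18 and adjusted p of 0.0638, 0.0781 and 0.111. Ears2 was called in 6 of 19 alternatives (adjusted p of 0.022 to 0.0466). Tars2 was called in 2, with the library number as a block (adjusted p = 0.0282) and without Opa1-/- library 1 (0.0400), and Vars2 in 2, with upper-quartile scaling (0.0452) and without Opa1-/- library 1 (0.0465). With chromosome medians removed, Ears2 and Nars2, which lie on chromosome 7, were at 0.087 and 0.070. Rars2, for arginine, was lower in all 4 pairs, at -0.12 (95% interval -0.23 to -0.0008, adjusted p = 0.113). Hars2, Iars2, Pars2, Wars2 and Yars2, for histidine, isoleucine, proline, tryptophan and tyrosine, had differences between -0.051 and 0.072. Of these, Hars2 was called with length and GC trends removed (0.11, adjusted p = 0.0383) and Pars2, on chromosome 4, with chromosome medians removed (0.19, adjusted p = 0.044). The 95% interval of Iars2 reached from -0.10 to 0.14. Hars and Hars2 lie head to head and share 195 exon bases on opposite strands, and Iars2 shares 22.9% of its exon bases with Rab3gap2 on the opposite strand, so their reads there cannot be told apart.

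Lars2, the leucine enzyme of mitochondria (ENSMUSG00000035202, chromosome 9, 123366927 to 123462666, plus strand), stood apart from its set. It was listed at 432, 498, 291 and 439.9 scaled TPM in Opa1-/- libraries 1 to 4, against 388, 438, 152 and 427 in Opa1-/- + OPA1 libraries 1 to 4 (log2 difference 0.33, SE 0.33, adjusted p = 0.482). The groups overlapped, and it was lowest in library 3 of both. The listed level of Lars2 ran with that of 4 rRNA-like genes (Gm23935, Gm24270, Gm42418 and Mir6236), which took 5.29% to 15.5% of the TPM. Their sum was 154087, 160653, 102618 and 155128 scaled TPM in Opa1-/- libraries 1 to 4, and 138189, 147213, 48931 and 139489 in Opa1-/- + OPA1 libraries 1 to 4. The sum was between 321 and 357 times the Lars2 value in all 8 libraries. Without Opa1-/- + OPA1 library 3 the Lars2 difference was -0.037 (adjusted p = 0.894). Of the 50-base words of Lars2 transcripts, 0.196% occur in other transcripts of the annotation. Whether reads of other origin were assigned to Lars2 was not tested, and its value is therefore given as listed.

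**Figure D4:**
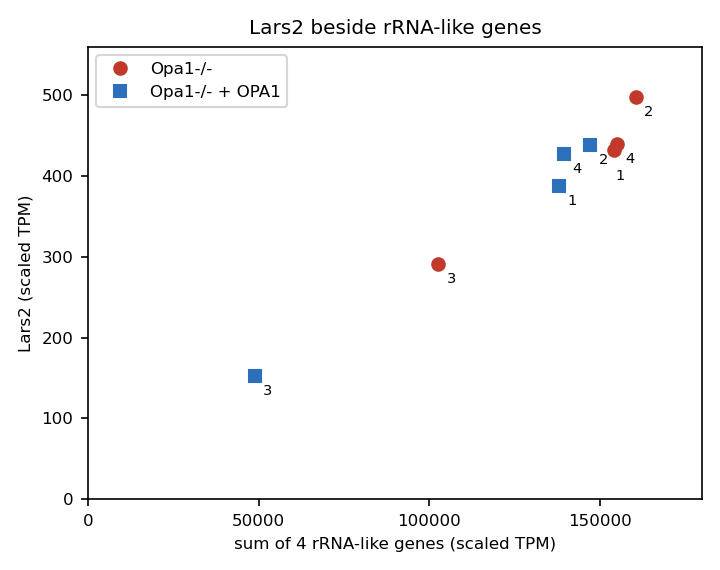
Lars2 (vertical axis, scaled TPM) against the sum of 4 rRNA-like genes (horizontal axis, scaled TPM) in 4 Opa1-/- libraries (circles) and 4 Opa1-/- + OPA1 libraries (squares), with library numbers beside the points. The points of both groups lie near 1 line through the origin, and library 3 of Opa1-/- + OPA1 is lowest on both axes at 152 for Lars2.

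To set the compartments against each other, the log2 ratio of the cytosolic over the mitochondrial enzyme for the same amino acid was taken within each library for 16 pairs, with Eprs paired with both Ears2 and Pars2. Fars2 was paired with Farsa and not with Farsb. The ratio was higher in Opa1-/- in 11 pairs and lower in 5, with a median shift of 0.10. In 7 pairs the groups separated fully, 4 toward the cytosolic and 3 toward the mitochondrial enzyme, each with p = 0.0286 in an exact two-sided permutation test of 4 against 4 libraries, the smallest p these allow. None passed Benjamini-Hochberg adjustment over the 16 pairs (smallest adjusted p = 0.0653 from the same exact test), for which 10 pairs at the smallest p would have been needed. Over all genes tested, groups of single genes did not overlap in 17.4% in the higher and in 18.9% in the lower direction. No such share was taken for ratios of other gene pairs, so the count of separated pairs is a description only. The number of pairs at unadjusted p below 0.05 in this test was 7 with all libraries. It was 3 without Opa1-/- + OPA1 library 1 or 3, and 4 without Opa1-/- + OPA1 library 2 or 4. Leaving out a library changes the assignments that the test can make. It cannot undo a full separation of the groups, so these lower counts do not show that pairs came to overlap.

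The cysteine and methionine pairs shifted most toward the cytosol. For cysteine the log2 ratio, Cars over Cars2, was 3.14, 3.06, 3.27 and 3.25 in the Opa1-/- libraries and 2.30, 2.34, 2.32 and 2.36 in the Opa1-/- + OPA1 libraries, a shift of 0.85. Cars rose and Cars2 fell, but the call of Cars2 was lost in 3 of 19 alternatives. For methionine the log2 ratio, Mars over Mars2, was 4.83, 4.86, 5.01 and 5.03 in the Opa1-/- libraries and 4.24, 4.16, 4.29 and 4.39 in the Opa1-/- + OPA1 libraries, a shift of 0.67. Mars rose and Mars2 fell, but the call of Mars2 was lost in 7 of 19 alternatives. With chromosome medians removed, the shift was 0.55 for cysteine and 0.61 for methionine, so their order turned. Nars over Nars2 and Yars over Yars2 shifted by 0.26 and 0.25, or by 0.40 and 0.35 with chromosome medians removed. The phenylalanine pair shifted the other way, with log2 ratios of Farsa over Fars2 of 1.42, 1.31, 1.52 and 1.58 in the Opa1-/- libraries and 2.16, 1.97, 2.35 and 2.23 in the Opa1-/- + OPA1 libraries, a shift of -0.72. Here the cytosolic subunit fell and the mitochondrial enzyme rose, and the shift was -0.55 with chromosome medians removed. The shift holds for Farsa only. Farsb, the other cytosolic subunit, differed by -0.034, and its ratio to Fars2 was not taken. Vars over Vars2 and Hars over Hars2 shifted by -0.19 and -0.11. For serine and alanine both enzymes rose, and their ratios shifted by 0.086 (exact p = 0.257) and 0.035 (exact p = 0.657), or 0.23 each with chromosome medians removed. The ratio of Lars over Lars2 ranged from -0.83 to 0.13 in Opa1-/- and from -1.17 to 0.52 in Opa1-/- + OPA1 libraries, with library 3 highest in each.

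**Figure D5:**
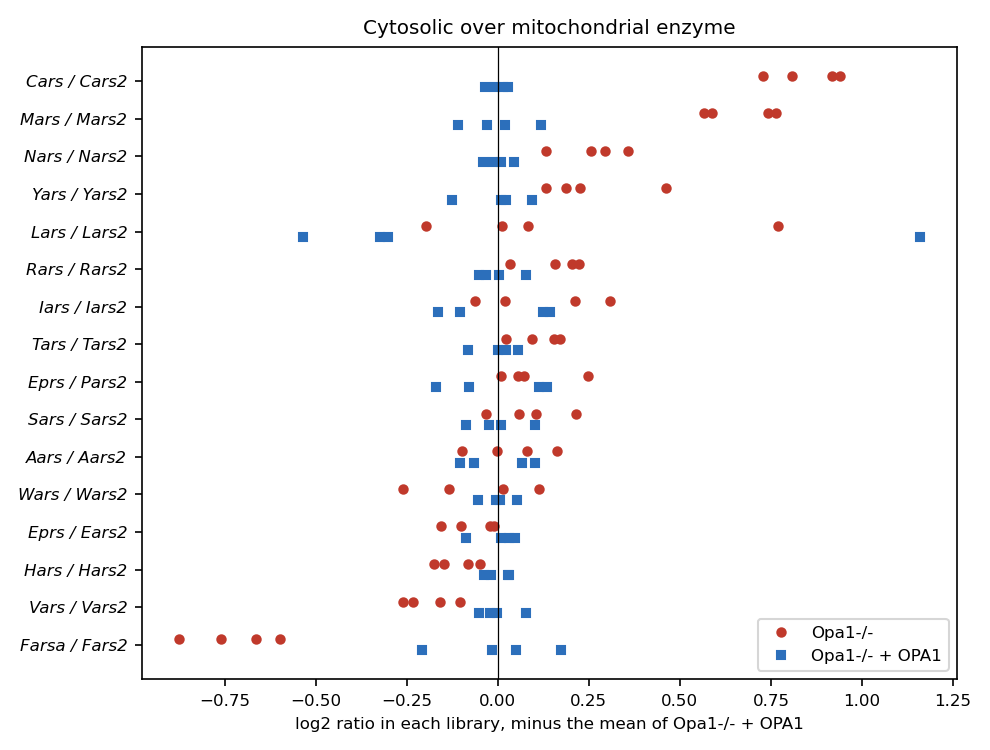
Log2 ratio of the cytosolic over the mitochondrial enzyme for 16 pairs in each library, minus the mean of the Opa1-/- + OPA1 libraries (horizontal axis), with 4 Opa1-/- libraries as circles above and 4 Opa1-/- + OPA1 libraries as squares below. Opa1-/- points lie to the right of 0 for Cars/Cars2 and Mars/Mars2 (shifts of 0.85 and 0.67), to the left for Farsa/Fars2 (-0.72), and the leucine pair is the most spread.

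Of 17 other genes of tRNA charging, 5 rose and none fell, with a median difference of 0.13, and 4 of them did so without overlap between groups. Over all genes tested 16.3% were called higher and 16.8% lower, and 17.4% were higher without overlap. Dtd1 and Dtd2 code for deacylases that remove wrongly attached amino acids from tRNA. Dtd1 was at 18.3, 17.4, 16.5 and 18.9 in the Opa1-/- libraries and 14.02, 14.9, 13.3 and 13.4 in the Opa1-/- + OPA1 libraries (0.33, adjusted p = 0.00244). Dtd2 was at 13.3, 13.4, 13.6 and 14.2 in the Opa1-/- libraries and 11.04, 11.6, 10.4 and 11.1 in the Opa1-/- + OPA1 libraries (0.28, adjusted p = 0.00261). Ptrh2, a peptidyl-tRNA hydrolase of the mitochondrial outer membrane, rose by 0.24 (adjusted p = 0.0476), and Qrsl1, the catalytic subunit of the amidotransferase that makes glutaminyl-tRNA in mitochondria, by 0.16 (adjusted p = 0.0165). Mtfmt, which formylates the mitochondrial initiator tRNA, rose by 0.17 (adjusted p = 0.0288), a call not kept with the library number as a block (adjusted p = 0.0630). The 3 scaffold genes of the complex, Aimp1, Aimp2 and Eef1e1, were not called, at 0.17, -0.050 and 0.13. Nor was Tarsl2, another cytosolic threonine enzyme, at -0.20 (adjusted p = 0.159).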

How the data were processed

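RNA of immortalized MEFs was sequenced in 4 Opa1-/- and 4 Opa1-/- + OPA1 libraries. The labels do not say that libraries of a group came from separate cultures, so p-values reflect library-to-library spread that could be technical. Per the labels' protocols, the RNeasy Plus kit was used for RNA and the NEBNext Ultra II kit for libraries. Per the submitters' processing notes, the tools were Subread 1.5.2, featureCounts, STAR 2.5.2b and bcl2fastq 2.17, and 2 builds, GRCh38 and mm10, are listed without their role. The sources used here do not give the strand setting of the counting. The authors deposited TPM values per gene, per the file headers, and each file sums to 1000000 TPM. TPM divides by gene length, and the TPM steps match the total of all annotated exon bases of a gene. This total can exceed the length of the transcript in the cells, so levels of different genes can be compared only roughly. A few very abundant genes also move all others.

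Libraries were therefore put on 1 scale with a mean of log ratios after trimming (at each end 30% by ratio and 5% by level; factors of 0.962 to 1.08). Genes that reached 1 TPM in 4 or more libraries were tested with limma-trend (limma 3.58.1, R 4.3.3) on log2(scaled TPM + 1), two-sided, with Benjamini-Hochberg adjustment and a threshold of 0.05. The procedure was tested on simulated data. Ratios of enzyme pairs were compared by an exact permutation test over 70 assignments. Positions, exon lengths and GC content are those of GENCODE M21 on GRCm38, to which mm10 corresponds, with 49056 of 49315 identifiers found. Assigned reads were recovered from the TPM steps, with 95.0% to 95.5% of low values whole within 0.05 of a read, and were used for depth and for limma-voom only. Promoters came from RefSeq (GRCm38.p6), where Mars was matched as Mars1. Cars, Hars, Lars, Nars, Rars, Vars, Wars, Hars2 and Pars2 had no entry that was used.

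Members, lists, tests and alternatives were chosen with earlier results of these data known. Values in every library were given for called members and for the highest and lowest of each set. Opa1, Atf4, Asns, Trib3, Ddit3 and 17 other genes of tRNA charging were named as context. Some items are not reported here. The rRNA-like genes and the genes that overlap a member were chosen after their values were seen. Libraries with the same number were taken as pairs from the data: over 9416 genes their deviations from the group means correlated at 0.246, 0.225, 0.317 and 0.119 for numbers 1 to 4. Libraries with different numbers correlated at -0.320 to 0.114, the highest being Opa1-/- 3 with Opa1-/- + OPA1 4. The pairing of number 4 therefore hardly stands apart from pairs with different numbers. Alternatives were a pseudocount of 0.1 TPM, other filters and scalings, the library number as a block, each library and both libraries numbered 3 left out, chromosome medians or length and GC trends removed, protein-coding genes only, and limma-voom on recovered reads. Medians per chromosome were taken over genes whose mean log2 value exceeded 3. The remaining work was done with pandas 2.3.3, numpy 2.4.6 and matplotlib 3.10.9 in Python 3.11.15.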

Additional observations from a re-analysis of the deposited data

Results flagged for a closer look

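Of 72 groups of 4 libraries for single genes and 32 for enzyme pairs, 4 had 1 library far from the other 3 for the width of the group, by Dixon's criterion, which chance flags in about 5% of groups. Each lay in the Opa1-/- + OPA1 libraries. Dars was at 98.0 scaled TPM in Opa1-/- + OPA1 library 3, above its other 3. Sars2 was at 15.7 scaled TPM in Opa1-/- + OPA1 library 4, above its other 3 and below every Opa1-/- library. Vars2 was at 23.5 scaled TPM in Opa1-/- + OPA1 library 4, below its other 3. The log2 ratio of Lars over Lars2 was 0.52 in Opa1-/- + OPA1 library 3, above its other 3, where Lars2 was listed at 152 scaled TPM. Lars2 itself was just short of the criterion, with a gap of 0.823 of its range.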

How the results depend on the processing

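Each of the 36 gene results was recomputed under 19 alternatives, 684 values in all, of which 627 kept direction and side of the threshold, 27 lost a call, 14 gained one and 16 changed sign. No called gene changed sign in any of them. Of 17 called genes, 12 kept their call in all 19 alternatives, and Aars, Yars, Qars, Cars2 and Mars2 lost it in some. The counts of cytosolic genes were 7 to 11 higher and 2 lower over all alternatives. The count of mitochondrial genes called higher was 5 with upper-quartile scaling and 5 with length and GC trends removed, and 3 to 5 with 1 library left out. The count called lower was 1 with TPM as deposited and with chromosome medians removed, 0 with both libraries numbered 3 left out and with length and GC trends removed, and 1 to 2 with 1 library left out. The mitochondrial median difference was 0.047 to 0.13 with 1 library left out, the lowest without Opa1-/- + OPA1 library 3. The block, that is the pairing by library number, gave 11 cytosolic and 4 mitochondrial genes higher, 2 lower in each set and 4757 calls over all genes, against 4714 without it, and changed no call of a synthetase other than those of Eprs and Tars2. With 0 pair ratios passing adjustment under any alternative, the number at unadjusted p under 0.05 by the exact test was 3 to 8 with 1 library left out, 0 with both libraries numbered 3 left out and 0 in the block form, by sign flips of 4 same-numbered differences; both designs are too small to reach 0.05.

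Sign changes were all in genes not called. Wars2 was at -0.00011 and reached 0.013 with a filter of 5 TPM, 0.029 with upper-quartile scaling, 0.0082 with both libraries numbered 3 left out, 0.032 with chromosome medians removed, 0.060 with length and GC trends removed, 0.0026 with protein-coding genes only, and -0.053 to 0.072 with 1 library left out. Farsb ranged from -0.074 to 0.0072 and Lars2 from -0.037 to 0.49 with 1 library left out. With chromosome medians removed, Rars was at -0.0046, Wars at 0.037, Rars2 at 0.039 and Yars2 at 0.0029. The cause of these changes was not tested.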
